A study of Mus musculus with 20 samples.

Results

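The genes described here are 10 neuronal genes, taken by name from 29956 gene rows: the 4 stathmins Stmn1, Stmn2, Stmn3 and Stmn4, together with Dcx, Uchl1, Tubb3, Syp, Gap43 and Nes. They were followed by poly(A) RNA sequencing in mouse melb-a cells, a line of melanoblasts, the precursors of pigment cells. Stmn4, Dcx and Uchl1 were chosen by their estimated counts, which were known to be higher with hairpins against Hira in these same libraries. Their difference between shHIRA and control shRNA libraries is therefore given as a description with no test, and the question is which of the other 7 genes followed. Enough counts for a test across all genes were present for 7 of the 10 (13541 genes in all): Stmn4, Dcx, Uchl1, Stmn1, Tubb3, Syp and Nes. Stmn2, Stmn3 and Gap43 were below that limit and are given as TPM, a read share corrected for transcript length.

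The 20 libraries came from 5 groups of 4 biological replicates, all of the one line, with wild type as the labelled genotype and stem cell factor and Fgf2 in the medium. The groups were cells with lentivirus shHIRA II, cells with lentivirus shHIRA I, cells with lentivirus shScramble, cells with lentivirus shLuciferase, and parental cells. For infection, virus and polybrene stayed on the cells for 16 hours before selection in puromycin at 1 µg per ml, so the parental cells differ from all 4 other groups in virus and selection together. The time between infection and harvest is not given in the sources used here. HIRA is the histone chaperone that places a replacement form of histone H3 outside DNA replication.

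Hira itself was lower with shHIRA I and not measurably so in the shHIRA II-labelled libraries. Its log2 fold change against the mean of both control shRNA groups was −0.19 in the shHIRA II-labelled libraries (SE 0.14, edgeR adjusted p = 0.306) and −1.05 with shHIRA I (SE 0.14, edgeR adjusted p = 5.15e-05). A direction drawn from the first of these groups is therefore given under that label only. Total estimated counts were between 15 and 20.7 M per library. Mitochondrially encoded mRNA took 4.19 ± 0.876% of counts in the shHIRA II-labelled libraries and 5.70 ± 3.44% with shHIRA I, against 8.23 ± 1.06% with shScramble, 7.98 ± 1.51% with shLuciferase and 7.17 ± 1.40% in parental cells (SD over 4 libraries per group). It was lowest in replicate 3 of shHIRA I (1.23%), then in replicate 2 of shHIRA II (2.88%). The highest shHIRA II-labelled library, at 4.71%, lay below the lowest control shRNA library, at 6.43%. A fit with this share as a covariate therefore cannot separate the share from the group in the shHIRA II-labelled libraries. The summed level of 10 melanoblast and melanocyte markers was 855 ± 166 TPM in the shHIRA II-labelled libraries, 1997 ± 1038 TPM with shHIRA I, 3418 ± 674 TPM with shScramble, 3761 ± 721 TPM with shLuciferase and 3130 ± 451 TPM in parental cells (SD, n = 4 each). Among these markers Sox10 varied within groups, with ranges of 0.0247 to 0.271 TPM in the shHIRA II-labelled libraries, 0.00163 to 1.08 TPM with shHIRA I, 0.0644 to 7.21 TPM with shScramble, 0.00016 to 0.0542 TPM with shLuciferase and 0.0630 to 11.2 TPM in parental cells.

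Stathmins are small cytosolic proteins that bind tubulin dimers and favour the disassembly of microtubules, and their binding is turned off by phosphorylation. Stmn1 is found in many proliferating cells, while Stmn2 (also called SCG10), Stmn3 (SCLIP) and Stmn4 (RB3) carry a membrane anchor and are typical of neurons. Doublecortin, the product of Dcx, binds and stabilises microtubules in migrating young neurons. Uchl1 is an abundant deubiquitinating enzyme of the neuronal cytoplasm, Tubb3 the neuronal beta tubulin, Syp (synaptophysin) a membrane protein of synaptic vesicles, Gap43 a membrane protein of growth cones, and Nes (nestin) an intermediate filament protein of neural progenitors. The neural crest gives rise both to melanoblasts and to peripheral neurons and glia. Many neuronal genes are silenced outside the nervous system by the repressor REST, which binds a DNA element called RE1.

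The stretches just before the annotated start are shown for the 5 of these genes that differed from control with at least one hairpin, or were chosen for doing so, and that have an entry in the RefSeq promoter table (GRCm38.p6). Entries were found for 6 of the 10 genes. They lie at chr5:66675871-66676090 (plus strand) for Uchl1, chrX:143933312-143933469 (minus strand) for Dcx, chr3:87970843-87971077 (plus strand) for Nes, chr8:123411303-123411423 (plus strand) for Tubb3 and chrX:7638330-7638470 (plus strand) for Syp, and end before the outermost annotated first base. Capitals mark matches on either strand to common promoter motifs, namely GGGCGG, which is known as the GC box, the letters CCAAT, which give their box its name, and TATAAA, the sequence searched for as the TATA box.
Uchl1: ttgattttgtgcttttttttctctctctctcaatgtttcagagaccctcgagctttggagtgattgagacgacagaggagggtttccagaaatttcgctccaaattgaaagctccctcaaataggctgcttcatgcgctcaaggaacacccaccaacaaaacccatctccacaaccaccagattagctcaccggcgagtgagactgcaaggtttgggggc
Dcx: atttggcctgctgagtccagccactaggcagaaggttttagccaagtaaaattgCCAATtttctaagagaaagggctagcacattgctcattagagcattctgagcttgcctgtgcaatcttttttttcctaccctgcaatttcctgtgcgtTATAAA
Nes: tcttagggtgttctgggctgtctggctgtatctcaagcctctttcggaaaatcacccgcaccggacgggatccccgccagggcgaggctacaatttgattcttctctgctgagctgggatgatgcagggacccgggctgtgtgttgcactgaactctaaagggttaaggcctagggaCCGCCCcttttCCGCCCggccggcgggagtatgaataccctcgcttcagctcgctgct
Tubb3: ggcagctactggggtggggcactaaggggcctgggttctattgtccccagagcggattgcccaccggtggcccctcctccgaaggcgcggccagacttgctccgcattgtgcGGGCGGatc
Syp: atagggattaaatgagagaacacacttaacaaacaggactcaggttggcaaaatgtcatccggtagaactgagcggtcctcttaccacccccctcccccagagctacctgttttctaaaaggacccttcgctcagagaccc

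No motif of those searched was found in the windows of all 5 genes. In the full 250 bases before the RefSeq start, Uchl1 held no match, Dcx a CCAAT box and a TATA box, Nes 2 GC boxes, Tubb3 2 GC boxes and a CCAAT box, and Syp 2 GC boxes. No window of the 6 genes held TTCAGCACC, searched as the left part of RE1, and none held GGACAGC, searched as its right part. The E-boxes CACGTG, of the kind that Mitf binds, and CATGTG were absent from the 6 windows as well. Over 32851 promoter windows of this length, 32.7% held a GC box, 33.8% a CCAAT box, 12.4% a TATA box, 0.301% the left part of RE1, 5.28% the right part, 6.02% CACGTG and 12.3% CATGTG, with both strands counted. The number of CpG dinucleotides in these bases was 7 for Uchl1 and 3 for Dcx, against 15 for Nes, 21 for Tubb3 and 11 for Syp, and the median over all windows was 6. These matches describe the letters in the windows and were not tied to any change in expression.

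**Figure D1:**
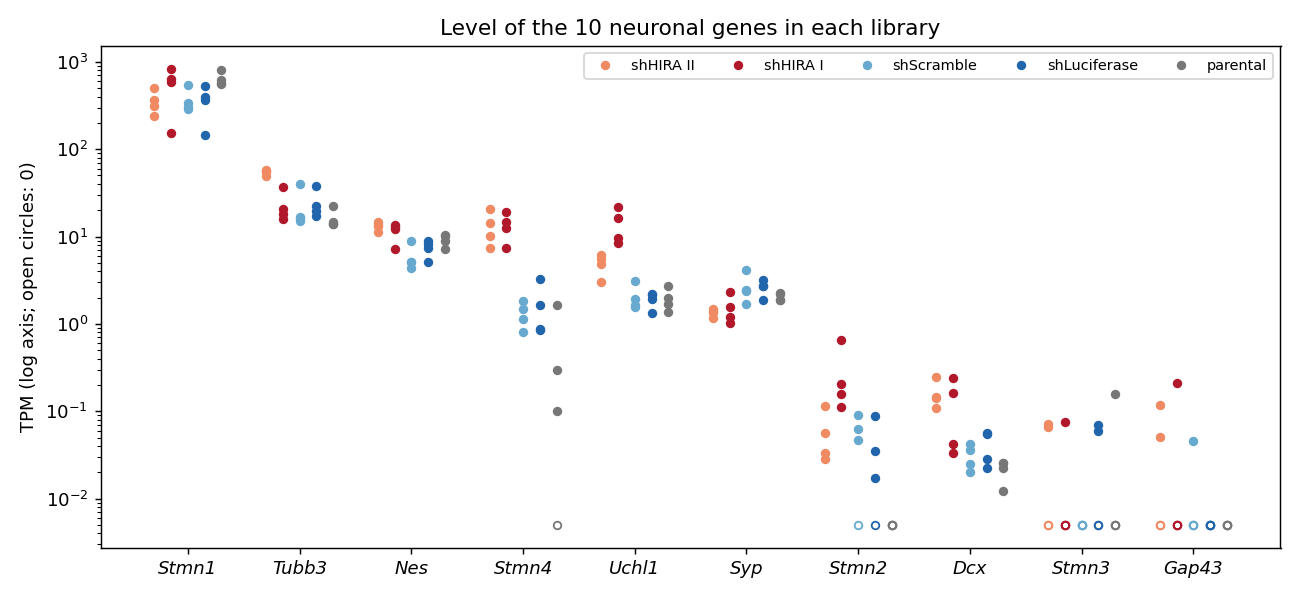
TPM of the 10 genes in each of the 20 libraries on a log axis, ordered by their mean over all libraries, with open circles for a value of 0. Stmn1 stood highest in every group, Tubb3, Nes, Stmn4, Uchl1 and Syp lay in the middle, and Stmn2, Dcx, Stmn3 and Gap43 were near 0.

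Levels differed widely between the 10 genes on the per-length TPM scale. Over all 20 libraries the mean was 454 TPM for Stmn1, 28.0 TPM for Tubb3, 9.41 TPM for Nes, 6.01 TPM for Stmn4, 4.95 TPM for Uchl1 and 2.04 TPM for Syp. The other genes averaged 0.0851 TPM (Stmn2), 0.0747 TPM (Dcx), 0.0250 TPM (Stmn3) and 0.0212 TPM (Gap43). The order of the middle genes depended on the group: Stmn4 averaged 13.1 ± 5.79 TPM in the shHIRA II-labelled libraries and 13.5 ± 4.90 TPM with shHIRA I, and 0.515 ± 0.774 TPM in parental cells (SD, n = 4 each). In parental cells the order was Stmn1, Tubb3, Nes, Syp, Uchl1 and Stmn4, and there the spreads of Syp (2.05 ± 0.211 TPM) and Uchl1 (1.95 ± 0.571 TPM) overlapped.

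Of the stathmins, Stmn4 (chromosome 14, 66344296 to 66361680, plus strand, GRCm38) was 8.43 times as high over both hairpins as with the control shRNAs. In CPM, counts scaled to a common library size, replicates 1 to 4 stood at 15.4, 6.45, 6.98 and 9.77 in the shHIRA II-labelled libraries and at 8.42, 12.7, 13.5 and 5.24 with shHIRA I. They stood at 1.41, 1.02, 0.673 and 1.19 CPM with shScramble, at 2.43, 1.24, 0.662 and 0.683 CPM with shLuciferase, and at 0.246, 1.27, 0.104 and 0 CPM in parental cells. All 8 shHIRA libraries lay above all 12 others, and the choice of this gene fixes that direction. A separation of both shHIRA groups from both control shRNA groups in either direction was seen for 3.9% of tested genes, and one upward for 1.73%. The log2 fold change against the control shRNA mean was 3.05 in the shHIRA II-labelled libraries (95% interval 2.01 to 4.09) and 3.10 with shHIRA I (2.06 to 4.14).

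Although Hira differed between the hairpins, no difference between them was detected for Stmn4. As shHIRA II minus shHIRA I the log2 difference was −0.05 (SE 0.62, 95% interval −1.26 to 1.16, edgeR adjusted p = 0.968), an interval that still holds a difference of 2-fold in either direction. The control shRNA libraries themselves averaged 1.51 above the parental cells on the log2 scale (95% interval 0.23 to 2.79). That value rests on replicate 2 of the parental cells, at 1.27 CPM, and was 3.30 without it. The parental library at 0 allows up to 3 counts at its depth. The log2 difference of both shHIRA groups from parental cells was 4.59, and 6.37 without that same parental library, and both shHIRA groups lay wholly above the parental cells, as for 5.59% of tested genes.

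Stmn1 (chromosome 4, 134468320 to 134473843, plus strand) was not measurably higher with the hairpins. It stood at 281, 453, 219 and 171 CPM in the shHIRA II-labelled libraries and at 445, 105, 790 and 430 CPM with shHIRA I. It stood at 430, 300.4, 257 and 239.8 CPM with shScramble, at 410, 113, 286 and 311 CPM with shLuciferase and at 735, 490, 510 and 457 CPM in parental cells. The 2 lowest libraries were replicate 2 of shHIRA I and replicate 2 of shLuciferase, and the shHIRA and control shRNA groups overlapped throughout. The log2 fold change was −0.06 in the shHIRA II-labelled libraries (SE 0.38, edgeR adjusted p = 0.920) and 0.59 with shHIRA I (SE 0.38, edgeR adjusted p = 0.293). For both groups together it was 0.27 (95% interval −0.35 to 0.88, edgeR adjusted p = 0.558), an interval that holds a fall as well as a rise.

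Single libraries decide the value with shHIRA I. Without its replicate 2 the log2 fold change was 0.92 and passed (edgeR adjusted p = 0.0448), and without its replicate 3, the library of lowest mitochondrial share, it was 0.15 (edgeR adjusted p = 0.825). With the mitochondrial share as a covariate, a fit chosen after seeing the data, the value over both hairpins had the other sign (−0.77, edgeR adjusted p = 0.0991). In that fit Stmn1 was lower in the shHIRA II-labelled libraries (−1.21, edgeR adjusted p = 0.0365), where the share and the group cannot be separated. Among 31-base stretches of Stmn1 transcripts 22.4% also occur in other genes, 19.9% in Gm11223, so the split of reads between them is uncertain.

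The control shRNA libraries all lay below the parental libraries for Stmn1, as for 3.04% of tested genes, while the shHIRA I libraries overlapped them. On the log2 scale the control shRNA groups stood at −0.90 against parental cells (SE 0.37, 95% interval −1.63 to −0.17, edgeR adjusted p = 0.212), an interval without 0 whose p did not pass after adjustment over all genes. Both shHIRA groups stood at −0.64 (SE 0.38, 95% interval −1.37 to 0.099, edgeR adjusted p = 0.236). That difference passed with the mitochondrial share as a covariate (−1.47, edgeR adjusted p = 0.00372) and without the 2 libraries of lowest share (−1.02, edgeR adjusted p = 0.0361).

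Stmn2, Stmn3 and Gap43 were close to 0 in all groups. Stmn2 (chromosome 3, 8509360 to 8561606, plus strand) averaged 0.0581 ± 0.0397 TPM in the shHIRA II-labelled libraries and 0.282 ± 0.251 TPM with shHIRA I, against 0.050 ± 0.0381 TPM with shScramble and 0.0351 ± 0.0381 TPM with shLuciferase (SD, n = 4 each), and was listed at 0 in all 4 parental libraries. The 4 shHIRA I libraries, at 0.111, 0.655, 0.207 and 0.157 TPM, all lay above the 8 control shRNA libraries, whose highest value was 0.0909 TPM. For shHIRA I against the control shRNA libraries the two-sided exact permutation test on TPM gave p = 0.00404 (adjusted 0.0364 over 9 tests of the 3 low genes), and for shHIRA II it gave p = 0.513 (adjusted 0.660). The first p is the lowest that this test can give for 4 against 8 libraries. These values come from 3.43 to 18.7 estimated counts per shHIRA I library. Replicate 3 of shScramble had 3.44, so in estimated counts the groups overlapped. In CPM, a separation of shHIRA I above the control shRNA libraries was seen for 4.62% of tested genes, which do not include Stmn2. Over both hairpins the exact permutation p of 0.0266 did not pass after adjustment (0.120).

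Stmn3 (chromosome 2, 181306459 to 181314500, minus strand) was listed at 0 in 14 of 20 libraries and Gap43 (chromosome 16, 42248442 to 42340651, minus strand) in 16 of 20. The highest library of Stmn3 was a parental one, at 0.158 TPM, and that of Gap43 was replicate 3 of shHIRA I, at 0.210 TPM. None of the 6 exact permutation tests of Stmn3 and Gap43 passed (lowest adjusted p = 0.45), and at these counts a small difference of either gene could not be measured. Stmn1 made up 96.1 ± 1.96% of the summed TPM of the 4 stathmins in the shHIRA II-labelled libraries and 95.9 ± 4.90% with shHIRA I, against 99.6 ± 0.0924% with shScramble, 99.4 ± 0.447% with shLuciferase and 99.9 ± 0.123% in parental cells (SD over 4 libraries per group). The rest was almost wholly Stmn4, so this share follows from the choice of that gene.

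**Figure D2:**
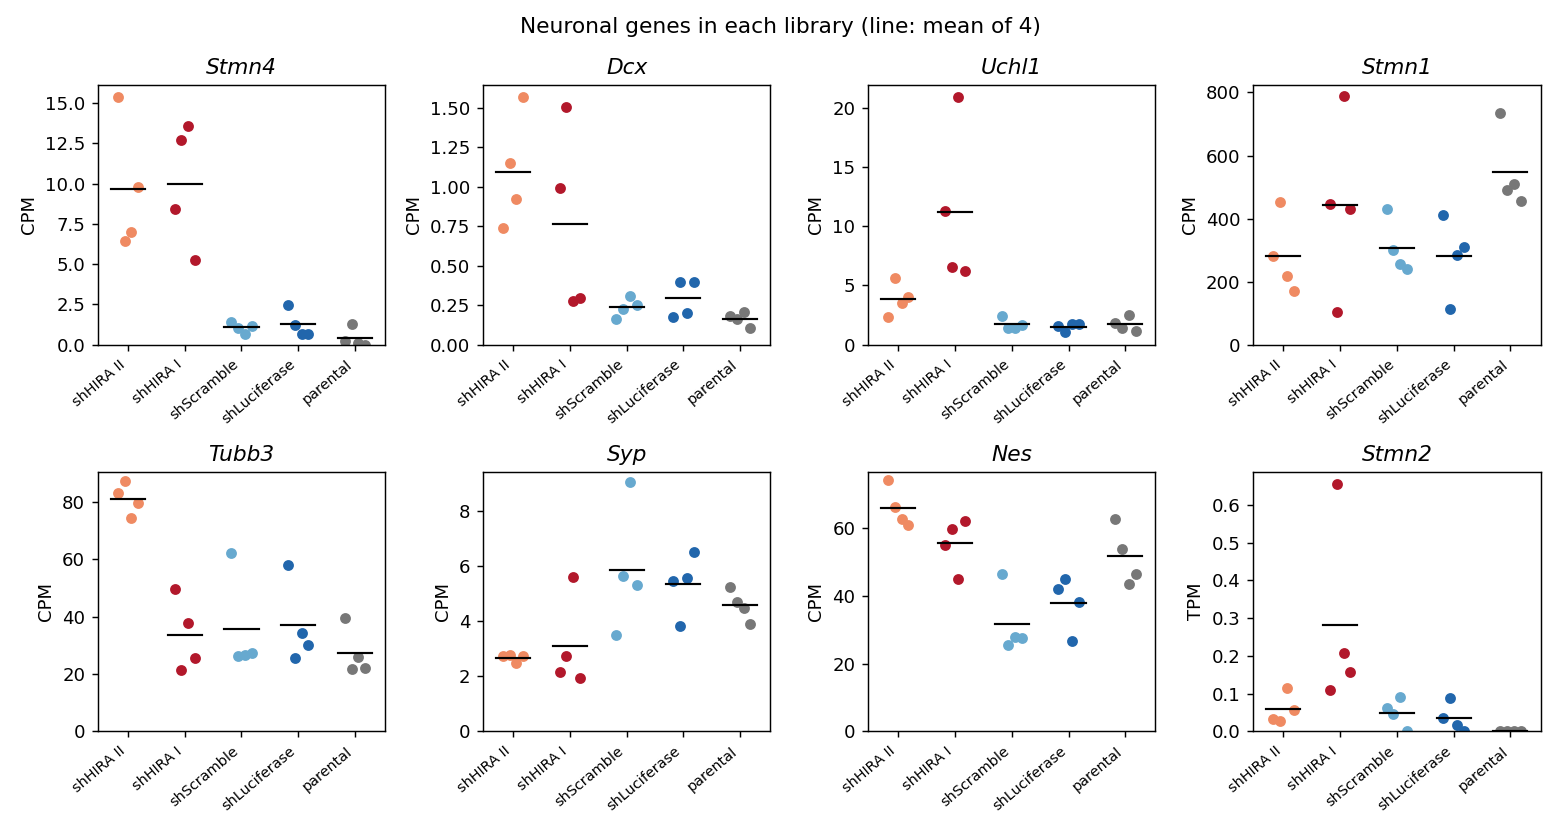
CPM (TPM for Stmn2) of 8 of the genes in each library by group, points for replicates 1 to 4 from left to right and a line at the group mean. All 8 shHIRA libraries lie above the control shRNA libraries for Stmn4, Tubb3 is set apart in the shHIRA II libraries alone at 74.4 to 87.2 CPM, and for Stmn1 the shHIRA and control shRNA libraries overlap.

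Dcx (chromosome X, 143855842 to 143933311, minus strand) was higher with the hairpins at a very low level. It stood at 0.739, 1.15, 0.924 and 1.57 CPM in the shHIRA II-labelled libraries and at 0.993, 1.51, 0.274 and 0.297 CPM with shHIRA I. The means were 0.238 ± 0.0608 CPM with shScramble, 0.294 ± 0.120 CPM with shLuciferase and 0.165 ± 0.0448 CPM in parental cells (SD over 4 libraries per group). The shHIRA II-labelled libraries all lay above the control shRNA libraries, as 11.3% of tested genes did, while replicates 3 and 4 of shHIRA I lay within them. Estimated counts were between 1.74 and 28.0 per library, so a single value carries a large counting error.

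The log2 fold change of Dcx was 2.02 in the shHIRA II-labelled libraries (95% interval 1.2 to 2.85) and 1.52 with shHIRA I (0.67 to 2.36). It was 0.97 with shHIRA I without that group's replicate 2, the highest of its libraries. With the mitochondrial share as a covariate the value in the shHIRA II-labelled libraries was 2.97. Between the hairpins, shHIRA II minus shHIRA I, the difference was 0.51 (SE 0.48, 95% interval −0.44 to 1.45, edgeR adjusted p = 0.502). Against parental cells both shHIRA groups stood 2.43 higher on the log2 scale with no overlap of libraries, as for 5.59% of tested genes. The control shRNA groups stood 0.67 above parental cells (95% interval −0.33 to 1.66).

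Uchl1 (chromosome 5, 66676091 to 66687234, plus strand) was higher with both hairpins and more so with shHIRA I. It stood at 2.33, 5.65, 3.49 and 3.99 CPM in the shHIRA II-labelled libraries and at 11.3, 6.53, 20.9 and 6.18 CPM with shHIRA I. The means were 1.72 ± 0.494 CPM with shScramble, 1.52 ± 0.334 CPM with shLuciferase and 1.71 ± 0.597 CPM in parental cells (SD over 4 libraries per group). The shHIRA I libraries all lay above the control shRNA libraries, as 4.62% of tested genes did, and in the shHIRA II-labelled libraries replicate 1 lay within their range. The log2 fold change was 1.25 in the shHIRA II-labelled libraries (95% interval 0.62 to 1.89) and 2.79 with shHIRA I (2.16 to 3.42).

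Both shHIRA groups stood 1.94 above parental cells on the log2 scale, and the control shRNA groups differed from parental cells by −0.08 (95% interval −0.75 to 0.59). The difference between the hairpins was itself tested for Uchl1. As shHIRA II minus shHIRA I it was −1.54 on the log2 scale (SE 0.39, edgeR adjusted p = 0.00822), and the 4 libraries of each hairpin did not overlap, with shHIRA II below shHIRA I, as for 9.65% of tested genes. It passed without any one of the 8 libraries, with a difference of −1.07 without replicate 3 of shHIRA I, the highest library. In a fit of these 2 groups alone the value was −1.54 and did not pass (edgeR adjusted p = 0.0664). With the mitochondrial share as a covariate the log2 fold change against the control shRNA mean was 0.56 in the shHIRA II-labelled libraries and 2.24 with shHIRA I. Reads of Uchl1os, which overlaps Uchl1 on the opposite strand, could share in these counts, since the strand setting of the counting is not given in the sources used here.

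**Figure D3:**
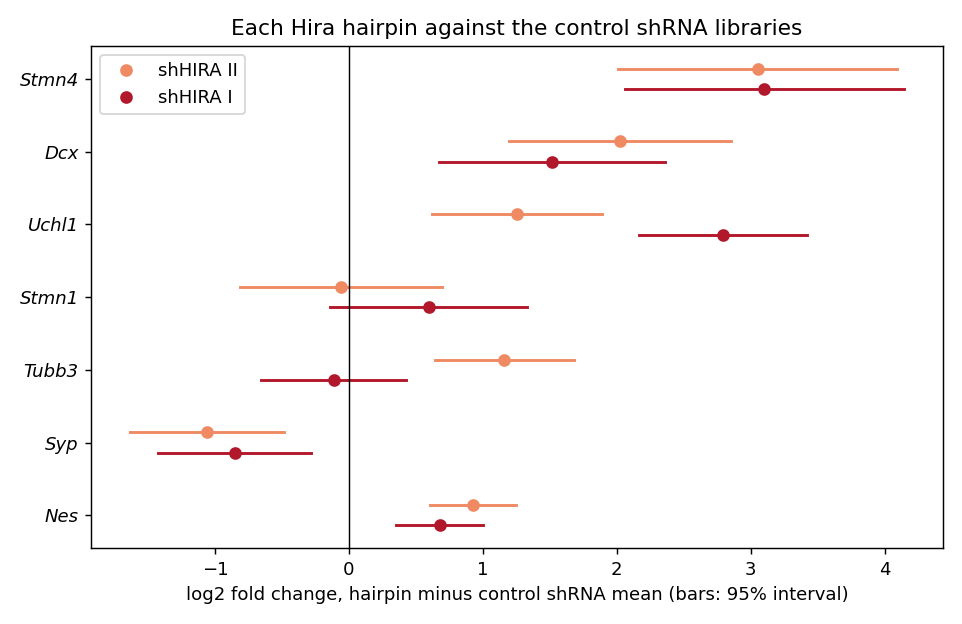
Log2 fold change of the 7 tested genes for shHIRA II and shHIRA I, each against the mean of the shScramble and shLuciferase groups, with bars for the 95% interval. Stmn4 is near 3.05 and 3.10, Uchl1 and Tubb3 differ between the hairpins, Syp lies below 0 and Nes above 0 for both, and Stmn4, Dcx and Uchl1 are shown as a description.

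Of the 4 tested genes that were not chosen for their rise, Nes rose, Syp fell, and Stmn1 and Tubb3 did not pass when both hairpins were set against both control shRNA groups. Over all tested genes 29.3% were called in this comparison at an edgeR adjusted p under 0.05, 14.2% higher and 15.1% lower, so 1 of 4 genes in each direction is close to the background. In a fit with a replicate block 3 of these 4 genes passed, Tubb3 among them, and 4354 of 13541 genes were called. In the shHIRA II-labelled libraries, 2 of the 4 genes rose and 1 fell, against 15.7% and 16.7% of all tested genes (32.4% in either direction). With shHIRA I, 1 rose and 1 fell, against 10.9% and 8.87% (19.7% in either direction). Between the hairpins 1 of the 4 was called, as higher in the shHIRA II-labelled libraries, against 21% of all tested genes in either direction, 8.6% higher and 12.4% lower.

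Nes (chromosome 3, 87971078 to 87980451, plus strand), the progenitor filament gene, rose with each hairpin. It stood at 74.3, 66.2, 62.6 and 60.9 CPM in the shHIRA II-labelled libraries and at 55.1, 59.8, 45.0 and 62.2 CPM with shHIRA I. It stood at 46.4, 25.4, 27.9 and 27.5 CPM with shScramble, at 42.1, 45.1, 26.6 and 38.1 CPM with shLuciferase and at 62.8, 54.0, 43.6 and 46.5 CPM in parental cells. The log2 fold change was 0.93 in the shHIRA II-labelled libraries (SE 0.16, edgeR adjusted p = 0.000362) and 0.68 with shHIRA I (SE 0.17, edgeR adjusted p = 0.00692). Both passed without any one library.

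For Nes the value depended on the control it was set against. Against parental cells the log2 difference of both shHIRA groups was 0.23 (SE 0.17, 95% interval −0.11 to 0.56, edgeR adjusted p = 0.363), and the libraries overlapped. The control shRNA groups averaged 0.57 below the parental cells on the log2 scale (−0.57, SE 0.17, edgeR adjusted p = 0.0628), a difference that did not pass here and did pass with DESeq2 (adjusted p = 0.0252). In that comparison 3.62% of all tested genes were called and none of the 4 genes. The difference between hairpins was 0.25 (95% interval −0.13 to 0.63, edgeR adjusted p = 0.401).

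Syp (chromosome X, 7638471 to 7653256, plus strand), the synaptic vesicle gene, fell. It stood at 2.73, 2.77, 2.46 and 2.75 CPM in the shHIRA II-labelled libraries and at 2.14, 2.73, 5.61 and 1.93 CPM with shHIRA I. It stood at 3.48, 5.62, 9.06 and 5.30 CPM with shScramble, at 5.46, 3.81, 5.55 and 6.49 CPM with shLuciferase and at 5.22, 4.68, 4.45 and 3.90 CPM in parental cells. The shHIRA II-labelled libraries all lay below the control shRNA libraries, as 12.7% of tested genes did, and with shHIRA I replicate 3, the library of lowest mitochondrial share, lay among them.

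Over both hairpins the log2 fold change of Syp was −0.96 (SE 0.23, edgeR adjusted p = 0.00441). It was −1.06 in the shHIRA II-labelled libraries (SE 0.29, edgeR adjusted p = 0.00972) and −0.85 with shHIRA I (SE 0.29, edgeR adjusted p = 0.0448). The call with shHIRA I was lost in 9 of the 12 fits without one library, at an adjusted p of up to 0.136, while without replicate 3 of shHIRA I the value was −1.31 (edgeR adjusted p = 0.00207). Against parental cells the difference of −0.66 did not pass (edgeR adjusted p = 0.0859). It passed there without replicate 3 of shHIRA I (−0.90, edgeR adjusted p = 0.00733). Gm14703 overlaps Syp on the opposite strand.

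Tubb3 (chromosome 8, 123411424 to 123422015, plus strand), the neuronal tubulin, rose in the shHIRA II-labelled libraries alone of the hairpin groups. It stood at 82.9, 87.2, 74.4 and 79.4 CPM in the shHIRA II-labelled libraries and at 49.5, 21.2, 37.7 and 25.7 CPM with shHIRA I. It stood at 62.0, 26.2, 26.6 and 27.1 CPM with shScramble, at 57.9, 25.7, 34.4 and 30.2 CPM with shLuciferase and at 39.6, 21.8, 25.8 and 22 CPM in parental cells. Replicate 1 was the highest of its group in shHIRA I, shScramble, shLuciferase and parental cells. The shHIRA II-labelled libraries lay above all 16 others. A separation above both control shRNA groups held for 11.3% of tested genes and one above shHIRA I for 8.71%. No share was computed for a separation from all 16.

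The log2 fold change of Tubb3 was 1.16 in the shHIRA II-labelled libraries (SE 0.26, edgeR adjusted p = 0.00271) and −0.11 with shHIRA I (SE 0.28, edgeR adjusted p = 0.822). The difference between the hairpins, shHIRA II minus shHIRA I, was 1.27 (SE 0.32, edgeR adjusted p = 0.00854) and passed without any one of the 8 libraries. The shHIRA II-labelled libraries, where Tubb3 was high, were those in which Hira was not measurably lower than with the control shRNAs. With the mitochondrial share as a covariate the value in the shHIRA II-labelled libraries was 0.76 and did not pass (edgeR adjusted p = 0.132). That fit cannot separate the share from this group. Over both hairpins the value was 0.52 (edgeR adjusted p = 0.0865). It passed without replicate 1 of shScramble (0.73, edgeR adjusted p = 0.0109) and with a replicate block (0.59, edgeR adjusted p = 0.00353). Against parental cells Tubb3 was higher by 0.93 (SE 0.29, edgeR adjusted p = 0.0228, 24.5% of all tested genes called, 12.5% higher), a call lost in 3 of 12 fits without one library. Gm20388 overlaps Tubb3 on the same strand, and 3.21% of the 31-base stretches of Tubb3 occur in other genes, mostly Tubb6.

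No difference between the control shRNA groups was detected for the 7 genes. As shScramble minus shLuciferase, edgeR's adjusted p was 0.999989 for each, and 0 of 13541 genes were called (0% of tested genes), with 170 at an unadjusted p under 0.05 and 5 called by DESeq2. The log2 differences of the 7 genes ranged from −0.30 (Dcx) to 0.18 (Uchl1), with 95% intervals as wide as −1.53 to 1.09 for Stmn4.

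**Figure D4:**
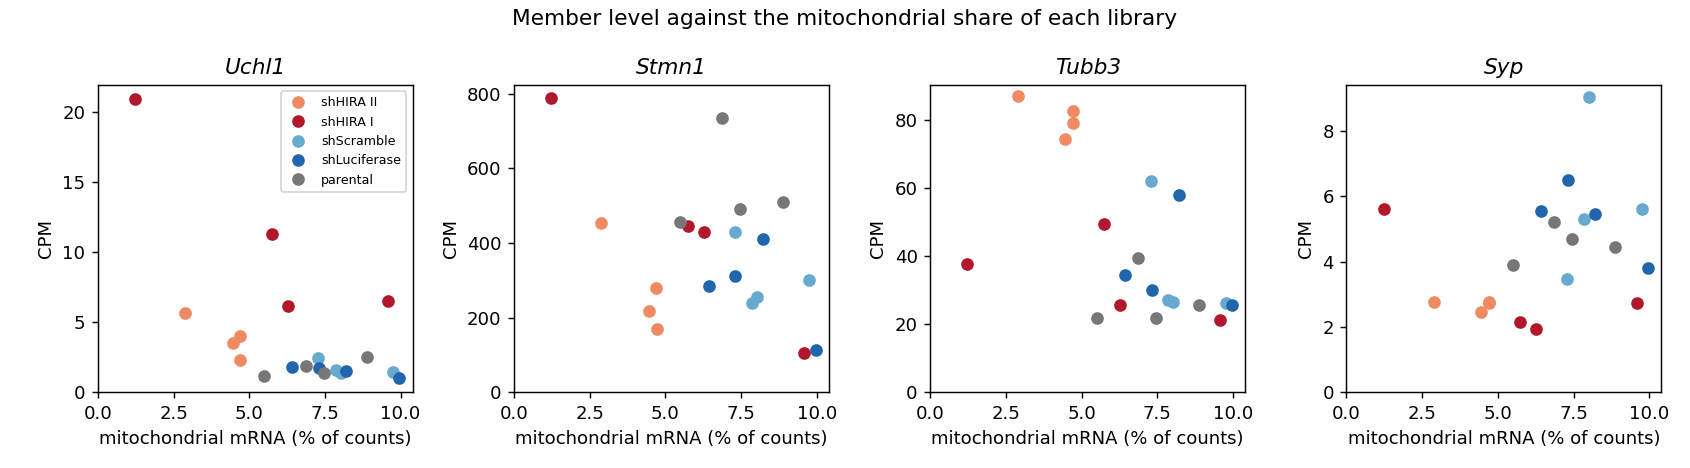
CPM of Uchl1, Stmn1, Tubb3 and Syp against the percentage of counts from mitochondrially encoded mRNA, one point per library, coloured by group. Replicate 3 of shHIRA I, at 1.23% mitochondrial mRNA, is the highest library for Uchl1 (20.9 CPM) and Stmn1 (790 CPM) and the highest of its group for Syp (5.61 CPM).

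Markers of mature neurons were low in all groups. The summed level of 10 such markers, of which 1 was tested, was 2.89 ± 0.919 TPM in the shHIRA II-labelled libraries and 3.33 ± 0.921 TPM with shHIRA I, against 2.53 ± 0.141 TPM with shScramble, 2.99 ± 0.0747 TPM with shLuciferase and 1.6 ± 0.306 TPM in parental cells (SD, n = 4 each). Most of it was Slc17a7, a vesicular glutamate transporter. The other 9, Stmn2 among them, summed to 0.285 ± 0.103 TPM in the shHIRA II-labelled libraries and 0.531 ± 0.284 TPM with shHIRA I, against 0.139 ± 0.0478 TPM with shScramble, 0.404 ± 0.398 TPM with shLuciferase and 0.176 ± 0.132 TPM in parental cells. Snap25, part of the synaptic fusion machinery, was at 0 in the shHIRA II-labelled libraries, with shScramble and in parental cells, and averaged 0.0531 TPM with shLuciferase. Gad1, which makes GABA, was at 0 in all control shRNA and parental libraries and averaged 0.0185 TPM with shHIRA I. Of these 9, the highest group mean was with a control shRNA for Snap25, Rbfox3, Syn1, Syt1 and Elavl4. It was with a Hira hairpin for Gad1, Map2, Nefl and Stmn2.

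Markers of other cell types moved with the groups. Of 8 Schwann cell and glial markers 6 fell over both hairpins, 4 in the shHIRA II-labelled libraries and 3 with shHIRA I. Of 9 tested melanoblast and melanocyte markers 7 fell over both hairpins, 7 in the shHIRA II-labelled libraries and 4 with shHIRA I. The shares of all tested genes that fell were 15.1%, 16.7% and 8.87% in these 3 comparisons. Fibroblast and mesenchyme markers summed to 9.23 ± 2.28 TPM in the shHIRA II-labelled libraries and 67.1 ± 25.3 TPM with shHIRA I, against 23.9 ± 5.70 TPM with shScramble, 25.9 ± 10.6 TPM with shLuciferase and 22.7 ± 5.52 TPM in parental cells. Dcn made up most of the sum with shHIRA I (52.9 TPM). Of 6 tested fibroblast markers 4 rose and none fell with shHIRA I, where 10.9% of all tested genes rose. In the shHIRA II-labelled libraries 1 rose and 3 fell, where 15.7% of all tested genes rose. Keratinocyte markers summed to 1.88 ± 0.588 TPM in the shHIRA II-labelled libraries and 3.84 ± 2.22 TPM with shHIRA I, against 5.69 ± 1.63 TPM with shScramble, 6.13 ± 2.34 TPM with shLuciferase and 5.69 ± 0.642 TPM in parental cells, and Epcam was at 0 in all libraries. Most of this sum was Cdh1, at 5.45 TPM with shScramble and 5.60 TPM with shLuciferase. Trp63 and Krt8 averaged higher with shHIRA I (0.653 and 0.295 TPM) than with shLuciferase (0.324 and 0.124 TPM) or shScramble (0.150 and 0.0421 TPM). No keratinocyte marker was called higher with either hairpin. The part of these markers and of the mitochondrial share in the values of the 10 genes was not tested further than the fits with that share. In the shHIRA II-labelled libraries those fits cannot separate share and group. In bulk RNA, more cells that express a gene and more of its RNA per cell cannot be told apart.

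The relatives of Stmn4, Dcx and Uchl1 moved in both directions. Counts of list genes are given over both hairpins unless a hairpin is named, and over all tested genes 14.2% rose and 15.1% fell in that comparison, 10.9% and 8.87% with shHIRA I and 15.7% and 16.7% in the shHIRA II-labelled libraries. Among the doublecortin-like kinases, Dclk3 rose over both hairpins (log2 fold change 1.53, SE 0.38, edgeR adjusted p = 0.00521) and Dclk1 fell (−1.0, SE 0.29, edgeR adjusted p = 0.0150). The hairpins differed for both: Dclk1 was at −1.90 in the shHIRA II-labelled libraries and Dclk3 at 2.72 with shHIRA I, and shHIRA II minus shHIRA I was −1.80 for Dclk1 (edgeR adjusted p = 0.00550) and −2.38 for Dclk3 (edgeR adjusted p = 0.00246). Dclk3 did not pass in the shHIRA II-labelled libraries (0.34, edgeR adjusted p = 0.605). Set against parental cells, both shHIRA groups stood at −0.078 for Dclk3 (edgeR adjusted p = 0.909) and −0.66 for Dclk1 (edgeR adjusted p = 0.185). The control shRNA groups were themselves below parental cells for Dclk3 (−1.61, edgeR adjusted p = 0.0419). Of 6 tested genes of the stathmin and doublecortin families 3 were higher and 1 lower, with Stmn4 and Dcx among the 3 by choice. Of 8 tested deubiquitinases of the Uchl1 family and ubiquitin genes, 2 were higher, Uchl1 by choice and Uchl5, a proteasome-bound relative (0.76, edgeR adjusted p = 0.0340), which was at 0.98 in the shHIRA II-labelled libraries (edgeR adjusted p = 0.0200) and did not pass with shHIRA I (0.55, edgeR adjusted p = 0.238). The median of this list was 0.01, beside 0.03 over all tested genes.

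Microtubule genes other than the stathmins were called in both directions. Over both hairpins against the control shRNAs their share was below the 29.3% of all tested genes called, which did not hold in every comparison. Of 13 tested tubulin genes 2 rose and 1 fell (median 0.29): Tuba3a rose (3.44, SE 0.65, edgeR adjusted p = 0.000694), Tubb2a rose (0.49, edgeR adjusted p = 0.00377) and Tuba1a fell (−0.54, edgeR adjusted p = 0.0349). Tubb2a and Tuba1a differed between the hairpins in the direction opposite to Tubb3, with shHIRA II minus shHIRA I at −1.39 and −1.53 (edgeR adjusted p = 3.57e-05 and 0.000679). Of 24 tested microtubule-associated genes 3 rose, namely Map1b, a neuronal microtubule-binding protein (1.58), Map7d1 (0.63) and Mapre2 (0.62), and 2 fell, Clasp2 (−1.0) and Clip2 (−0.61), which act at growing microtubule ends (median 0.03). Mapre2 was at 0.16 in the shHIRA II-labelled libraries and 1.08 with shHIRA I, and the hairpins differed (edgeR adjusted p = 0.00342). Set against parental cells, Mapre2 over both hairpins was at −0.0022 (edgeR adjusted p = 0.995), while Map1b, Map7d1, Clasp2 and Clip2 passed there in the same directions. Map1b was at 2.61 with shHIRA I (edgeR adjusted p = 0.00093) and differed between hairpins (shHIRA II minus shHIRA I −2.06, edgeR adjusted p = 0.0203). With both shHIRA groups against parental cells, 5 of the 13 tubulin genes were higher and 4 lower, above the 24.5% of all tested genes called. Of the 24 microtubule-associated genes 2 were higher and 5 lower there. With shHIRA I 5 of these 24 rose and 2 fell, and 2 of the 13 tubulin genes rose, against 19.7%. In the shHIRA II-labelled libraries 2 of the 24 rose and 4 fell, and 3 of the 13 rose and 1 fell, against 32.4%.

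Genes of axon growth and guidance went different ways with the hairpins. Of 13 tested, 1 rose and 4 fell in the shHIRA II-labelled libraries, while 3 rose and none fell with shHIRA I. The 3 that rose with shHIRA I were Marcks (0.68, edgeR adjusted p = 0.0123) and Basp1 (1.19, edgeR adjusted p = 0.00355), both membrane proteins of growth cones like Gap43, and the adhesion gene Cntn1 (1.08, edgeR adjusted p = 0.0183). Marcks was at −0.51 in the shHIRA II-labelled libraries (edgeR adjusted p = 0.0463), Basp1 at −0.037 and Cntn1 at −0.72, neither of which passed, and all 3 differed between the hairpins (highest edgeR adjusted p = 0.0105). Over both hairpins none of the 13 rose and 3 fell, the receptor gene Robo2 (−1.05, edgeR adjusted p = 0.00574) and the adhesion genes Ncam1 (−0.95, edgeR adjusted p = 0.000534) and Nrcam (−0.89, edgeR adjusted p = 0.0117), with a median of −0.10. These 3 fell in the shHIRA II-labelled libraries and did not pass with shHIRA I, where Robo2 was at −0.56, Ncam1 at −0.46 and Nrcam at −0.60.

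Of 20 tested synaptic vesicle and release genes 2 rose and 7 fell, with a median of −0.21. In the shHIRA II-labelled libraries 4 rose and 7 fell, and with shHIRA I 3 rose and 5 fell. The calls depended on the control. Against parental cells both shHIRA groups had 1 gene higher and 1 lower of the 20 (median −0.20), where 24.5% of all tested genes were called. The control shRNA groups had a median of 0.25 against parental cells, with none of the 20 called. Against the control shRNAs, the falls beside Syp were largest for Rab3a, a small GTPase of vesicle release (−1.17), Syngr2 (−0.74) and Syngr1 (−0.67), both relatives of Syp. The rises there were of Rab3b (0.93) and Stx1a (0.61). Rab3b was at 2.03 in the shHIRA II-labelled libraries and −0.16 with shHIRA I, and the hairpins differed (edgeR adjusted p = 0.00154). With shHIRA I, Rab3a (−0.57), Syngr1 (−0.21) and Stx1a (0.57) did not pass. The vesicle protein genes Sv2a and Sv2c moved apart between the hairpins, with Sv2a at 2.12 and Sv2c at −2.13 in the shHIRA II-labelled libraries and Sv2c at 1.07 with shHIRA I (shHIRA II minus shHIRA I 2.53 and −3.20, edgeR adjusted p = 0.00410 and 0.000105).

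**Figure D5:**
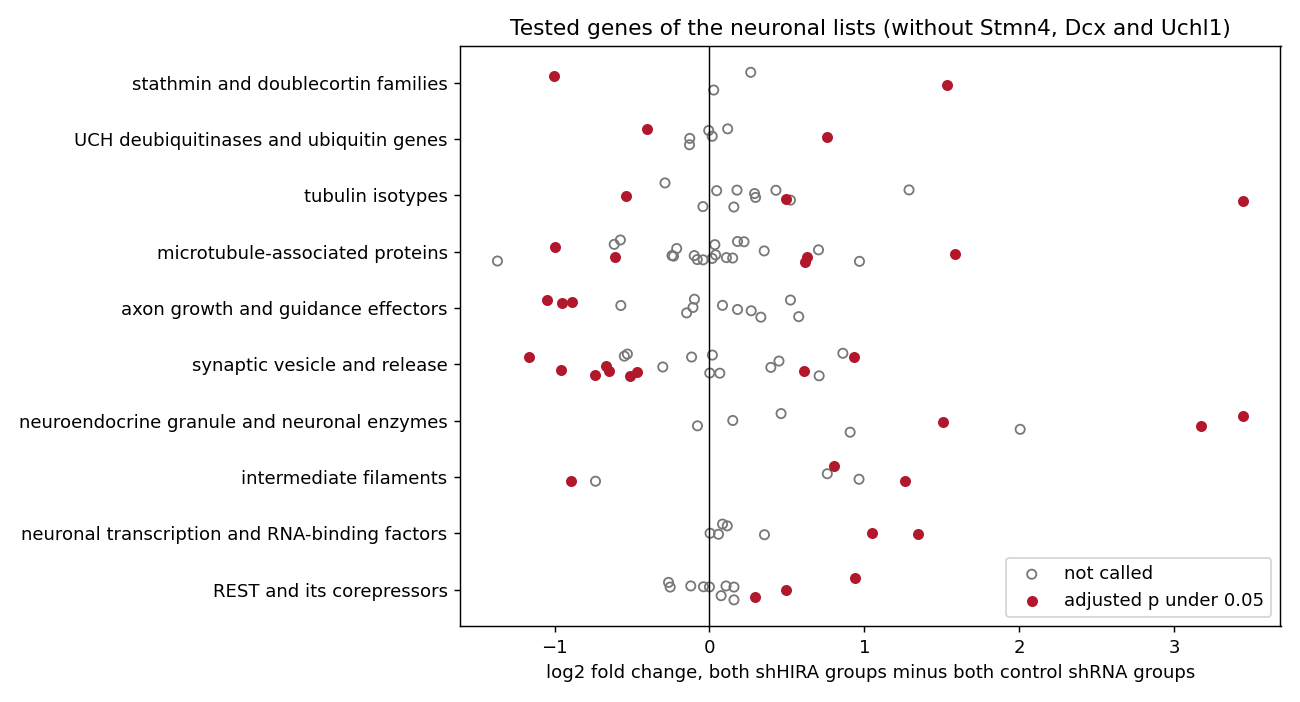
Log2 fold change of each tested gene of 10 neuronal gene lists, both shHIRA groups against both control shRNA groups, without Stmn4, Dcx and Uchl1. Filled points passed an edgeR adjusted p under 0.05: 7 of the synaptic list lie below 0 and 2 above, and no axon growth gene is called above 0.

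Of 8 tested genes on a list of neuroendocrine granule proteins and enzymes, not all of them particular to neurons, 3 rose and none fell (median 1.21): Scg2, a secretogranin (3.44, SE 0.54, edgeR adjusted p = 0.000123), Ass1, argininosuccinate synthase (3.17, SE 0.64, edgeR adjusted p = 0.00110), and Ddc, the decarboxylase of dopamine and serotonin synthesis (1.51, SE 0.38, edgeR adjusted p = 0.00572). Ass1 was at 4.79 in the shHIRA II-labelled libraries and 1.56 with shHIRA I (edgeR adjusted p = 5.72e-05 and 0.154), and the hairpins differed by 3.23 (edgeR adjusted p = 0.00953). Ddc was at 2.09 in the shHIRA II-labelled libraries and did not pass with shHIRA I (0.93, edgeR adjusted p = 0.163). Scg2 had a log2 fold change of 3.47 in the shHIRA II-labelled libraries and 3.42 with shHIRA I. Of 6 tested intermediate filament genes Nes and Des (1.26, edgeR adjusted p = 0.000789), the muscle filament gene, rose and Vim, which pairs with nestin in progenitors, fell (−0.89, edgeR adjusted p = 0.000195), with a median of 0.78. Des was at 0.66 in the shHIRA II-labelled libraries and 1.87 with shHIRA I, and the hairpins differed (edgeR adjusted p = 0.0164). Prph, the peripheral neuron filament gene, was at 2.25 with shHIRA I (edgeR adjusted p = 0.00272) and differed between hairpins (shHIRA II minus shHIRA I −2.58, edgeR adjusted p = 0.00599).

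Regulators of neuronal genes were called at shares of 2 of 7 and 3 of 12 over both hairpins, close to the 29.3% of all tested genes. Of 28 neuronal transcription and RNA-binding factors only 7 had enough counts, and of these Pou4f1, a sensory neuron factor (1.35, edgeR adjusted p = 0.00810), and Nova1, a neuronal splicing factor (1.05, edgeR adjusted p = 0.00434), rose (median 0.11). Pou4f1 did not pass with shHIRA I (0.90, edgeR adjusted p = 0.145), nor Nova1 in the shHIRA II-labelled libraries (0.78, edgeR adjusted p = 0.0531). All 12 genes of REST and its corepressors were tested, and 3 rose: Rest (0.29, SE 0.09, edgeR adjusted p = 0.0174), Rcor2 (0.94, SE 0.18, edgeR adjusted p = 0.000659) and Rcor3 (0.50, SE 0.16, edgeR adjusted p = 0.0248). None of the 12 fell over both hairpins, and the list's median was 0.09. Rcor3 was at 1.04 in the shHIRA II-labelled libraries and −0.052 with shHIRA I, and the hairpins differed (edgeR adjusted p = 0.00220), while Rest did not pass with shHIRA I (0.24, edgeR adjusted p = 0.130). Ctdspl, a phosphatase of the REST complex, fell in the shHIRA II-labelled libraries (−0.71, edgeR adjusted p = 0.000668) and rose with shHIRA I (0.47, edgeR adjusted p = 0.0145), with a difference of −1.18 between them (edgeR adjusted p = 6.24e-05).

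The genes whose profiles over the 20 libraries were closest to those of Stmn4, Dcx and Uchl1 were different for each. Likeness was the root mean square difference of centred log2 CPM, a description over libraries that share their groups. Closest to Stmn4, whose own profile has an SD of 2.04, were Il2rb, a cytokine receptor chain (0.859), Lmcd1 (0.935), Rgs16, a regulator of G protein signalling (0.976), Atf3, a stress-induced transcription factor (1.04), and Olfm1, a secreted neuronal glycoprotein (1.07). Among the closest to Dcx (SD 0.913) were Kcnh2, a potassium channel gene (0.423), A430105I19Rik (0.450), Acsl6 (0.475) and Gp1ba (0.486). Closest to Uchl1 (SD 1.11) were Gm10487 (0.542), Eepd1 (0.550), Zcwpw1 (0.562), Smpd3 (0.577) and Nkd1 (0.579). By Pearson correlation Ryk was closest to Uchl1 and Rgs16 to Stmn4, and Kcnh2 stayed closest to Dcx. Among the other members Uchl1 was closest to Stmn4 (1.48) and Nes to Dcx (0.783) and Uchl1 (1.00). Over all tested genes these members stood only at ranks 233, 789 and 1683. Dcx was nearly as close to Stmn4 (1.49) and to Uchl1 (1.01).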

How the data were processed

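Reads were processed by the authors with bcl2fastq, kallisto and edgeR on mm10, per the submitters' processing notes; their versions and the strand setting are not given in the sources used here. Libraries were made with a directional poly(A) kit, per the labels' protocols. The deposited tables hold kallisto's estimated counts and the authors' TPM for 29956 genes. TPM summed to 793366 to 864638 per library over these rows. Columns of parental and shHIRA I libraries were matched by elimination, as the headers name the other groups.

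Estimated counts were rounded and tested with edgeR 4.0.16 (R 4.3.3): TMM scaling, filterByExpr, one model of 5 group means over 20 libraries and the quasi-likelihood F test, with Benjamini-Hochberg adjustment over 13541 genes and a call at an adjusted p under 0.05. CPM use the scaled library sizes. SE is the log2 fold change divided by the root of F, and 95% intervals are normal ones on it. The 3 genes under the filter had exact permutation tests on TPM (SciPy 1.17.1). Python 3.11.15, pandas 2.3.3 and matplotlib 3.10.9 were also used. The members and all gene lists were chosen with earlier results of these data known. All 10 members are named in each comparison, and of a list all called genes up to 8, otherwise the 4 largest in each direction; Sv2a, Sv2c, Prph, Marcks, Basp1, Cntn1 and Ctdspl were named after their values were seen. Some results that this rule would name are not reported here. The fit was tested on simulated data.

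Coordinates are from GENCODE M21 (GRCm38), promoter sequences from RefSeq. Alternatives were DESeq2 1.42.0, RLE scaling, other filters, limma 3.58.1 on log2(TPM + 0.5), only the groups compared, a replicate block, leaving out each library, and, after seeing the data, 2 settings for the mitochondrial share. Replicate numbers were not used as pairs, since the labels give them no shared source and same-numbered libraries correlated with both signs. Their median correlation was 0.067, against −0.023 for libraries of other numbers, and 13 of 20 libraries correlated best with their own number. Whether the numbers mark a shared source was not tested, and the Tubb3 call over both hairpins depends on this choice. The labels call replicates biological without saying how they were separated, so p-values measure the spread between these samples. Intervals on counts cover counting error and this spread only.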

Additional observations from a re-analysis of the deposited data

Results flagged for a closer look

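Among the 4 replicates of a group, 7 of 46 member and group combinations had one library far from the other 3, where chance would give about 1 in 20. Tubb3 stood at 62.0 CPM in one shScramble library and at 26.2 to 27.1 CPM in the others. Nes stood at 46.4 CPM in one shScramble library and at 25.4 to 27.9 CPM in the others; both are replicate 1. Syp stood at 2.46 CPM in one library labelled shHIRA II and at 2.73 to 2.77 CPM in the others, a small gap in a tight group. The other 4 come from genes with almost no counts: Stmn3 at 0.0558 CPM in one shHIRA I library and 0.155 CPM in one parental library, and Gap43 at 0.205 CPM in one shHIRA I library and 0.0568 CPM in one shScramble library, with 0 in the other 3 libraries each time.

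For 2 genes the hairpins differed by the test of the difference itself. As shHIRA II minus shHIRA I, Uchl1 differed by −1.54 and Tubb3 by 1.27 on the log2 scale. The hairpins thus ranked the 2 genes in opposite order, and the cause was not tested.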

How the results depend on the processing

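Of 874 values of single genes under the alternatives, 808 kept direction and side of the threshold, 17 lost and 18 gained a call. Another 23 changed sign, and 8 descriptive values moved by at least the SD of log2 CPM within groups. Descriptive values that moved by less than this SD are among the 808. The cause was not tested. The values that changed sign follow. For Stmn1 over both hairpins the value was −0.77 once mitochondrial share was a covariate and −0.12 leaving out the 2 libraries of lowest share, and with shHIRA I −0.32 with the covariate. For Stmn1 with shHIRA II it was 0.012 on log2(TPM + 0.5) and between −0.39 and 0.13 without one library. Tubb3 with shHIRA I was 0.00043 on log2(TPM + 0.5) and −0.37 to 0.090 without one library. As shHIRA II minus shHIRA I, Stmn4 was 0.28 and Syp 0.22 without the 2 libraries of lowest share, and −0.34 to 0.11 and −0.38 to 0.22 without one library. Uchl1 in control shRNA against parental libraries was 0.014 on log2(TPM + 0.5), 0.0022 with the covariate and −0.24 to 0.16 without one library.

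The labels give replicate numbers no shared source, and whether they mark one was not tested. Same-numbered libraries of different groups correlated by −0.306 to 0.423 in their deviations, and 13 of 20 correlated best with their own number. The highest values were 0.423 between replicates 2 of shLuciferase and shHIRA I and 0.414 between replicates 1 of shLuciferase and shScramble. With a replicate block, 4354 genes were called over both hairpins; Tubb3 passed there (0.59, edgeR adjusted p = 0.00353), and Stmn1 with shHIRA II was 0.028.

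Counts of genes called, over all genes tested, moved by more than 1.5 times in some fits. Between control shRNAs 5 genes (DESeq2) or 1 (only its groups) were called in place of 0, and between hairpins 1088 (only its groups) in place of 2845, or 1997 to 4430 without one library. With shHIRA I the count was 1777 (only its groups) in place of 2671, and with shHIRA II 2767 (mitochondrial covariate) in place of 4394. For control shRNA against parental libraries it was 889 (DESeq2), 798 (covariate), 880 (only its groups) and 844 (without the 2 libraries) in place of 490, or 214 to 612 without one library. Dcx was below the TPM filter. Its counts and those of Stmn2, Stmn3 and Gap43 limit what depth can show.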
